A study of Homo sapiens with 8 samples.

Results

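Transcripts of 8 genes that start and restrain death receptor signalling were followed in 2 human leukaemia cell lines exposed to chlorprothixene, an antipsychotic drug of the thioxanthene class. The 8 genes were chosen by name: TNFSF10 (the ligand TRAIL), TNFRSF10A and TNFRSF10B (its death receptors DR4 and DR5), FAS, FADD, CASP8, CFLAR and XIAP. Each had 1 entry in the deposited gene tables, which hold 55765 gene names, and all 8 averaged 1 TPM or more (transcripts scaled for length and library total) and so were among the 14650 genes tested. RNA sequencing was done on 8 libraries of total RNA, 4 from NB4 and 4 from Kasumi-1, each line untreated and after 6, 12 and 24 h with 40 uM chlorprothixene. NB4 is an acute promyelocytic leukaemia line with the PML-RARA fusion, and Kasumi-1 is an acute myeloid leukaemia line with the RUNX1-RUNX1T1 fusion. Each line stands for 1 tumour, each condition is 1 library with no replicate, and the untreated cells are labelled as having no treatment, with no vehicle named.

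In the extrinsic pathway of apoptosis, a ligand such as TRAIL clusters its receptors on the cell surface, and the receptors recruit the adaptor FADD, which in turn recruits the initiator caspase CASP8. CFLAR (c-FLIP) resembles CASP8 but lacks its full catalytic activity and can limit its activation at the receptor, while XIAP binds and inhibits caspases further down. Myeloid leukaemia cells carry TRAIL receptors and FAS to varying degrees, and the balance of receptors, CASP8 and CFLAR is a known determinant of whether ligand binding kills a cell.

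The libraries carried the markers of their labels. RUNX1T1, the fusion partner in Kasumi-1, lay between 58.0 and 92.5 TPM in Kasumi-1 and at no more than 0.0476 TPM in NB4, and the myeloid gene MPO lay between 1528 and 11406 TPM over all 8 libraries. All 3 erythroid markers were listed at 0 in every library, as were the B cell marker MS4A1 and the epithelial marker KRT5. The other epithelial markers stood at 15.7 to 29.7 TPM for EPCAM and at no more than 0.0533 TPM for CDH1. Between 13358 and 14582 genes reached 1 TPM in a library, and the libraries were within 1.5 times of each other in inferred depth. Mitochondrial transcripts took 5.04% to 6.71% of TPM in NB4 and 7.94% to 17.1% in Kasumi-1, the highest at 24 h.

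With chlorprothixene, the DR5 transcript and the transcripts of both inhibitors, CFLAR and XIAP, were above the untreated level in all 6 treated libraries, and TRAIL was below it in 5 of 6. None of these differences passed the test across all genes, and 12.9% of all genes tested were higher and 16.9% lower in all 6 treated libraries. The differences that passed the test were between the cell lines, as they were for 55.4% of all genes: FAS, DR5, FADD and CFLAR were higher in NB4 and TRAIL was higher in Kasumi-1. XIAP was also higher in NB4, but 9 of 15 alternative analyses ended that call. Among them were leaving out any 1 of 6 libraries (adjusted p 0.0706 to 0.094 by limma) and gene coverage (0.251).

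**Figure D1:**
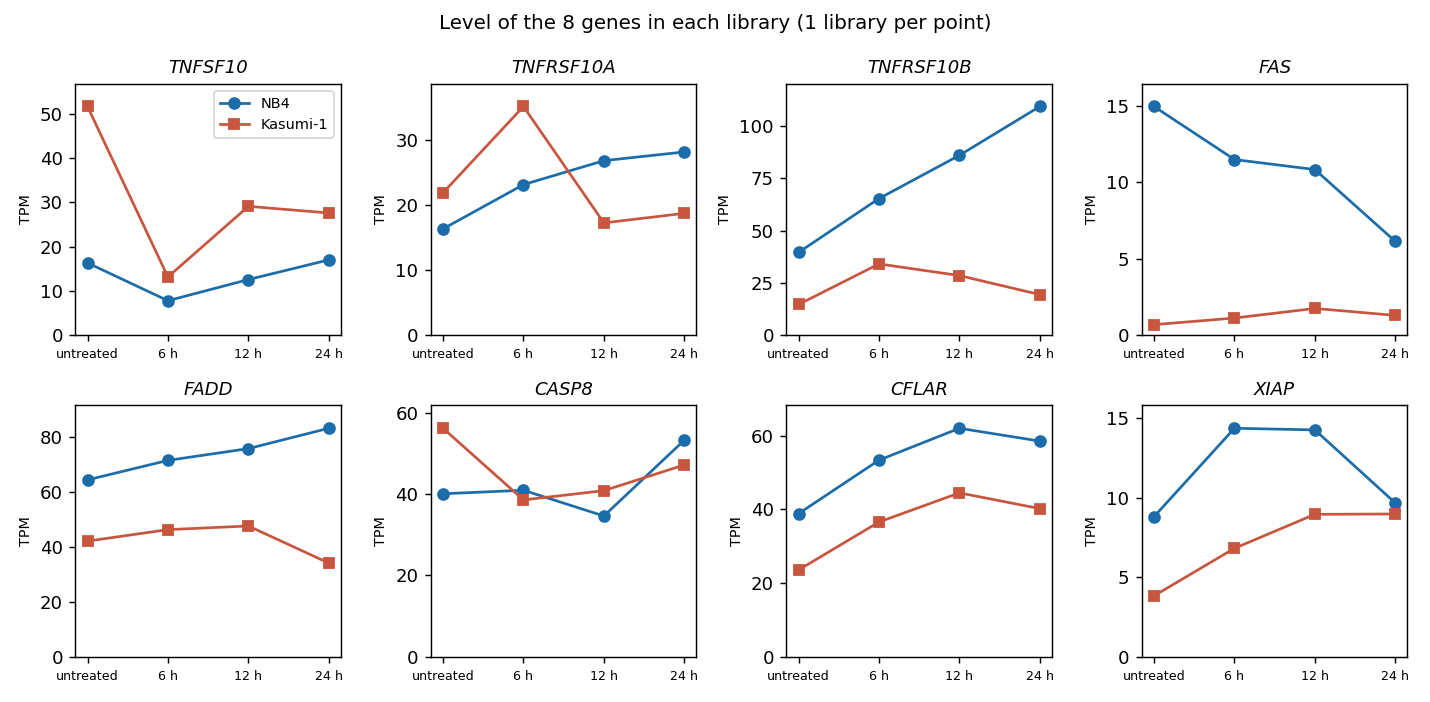
TPM (linear vertical axis from 0, a separate scale in each panel) of the 8 genes in untreated cells and after 6, 12 and 24 h with chlorprothixene, in NB4 (circles) and Kasumi-1 (squares); the conditions are evenly spaced, each point is 1 library, and no error bar is drawn because each condition has 1 library. TNFRSF10B lies between 39.5 and 109 TPM in NB4 and between 14.6 and 34.04 TPM in Kasumi-1, and FAS is at most 1.75 TPM in Kasumi-1.

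The ligand TRAIL, encoded by TNFSF10 on the minus strand of chromosome 3 (hg19, 172223298 to 172241297), was measured at 16.3 TPM in untreated NB4 and at 7.77, 12.5 and 17.0 TPM after 6, 12 and 24 h. In Kasumi-1 it stood at 51.6 TPM untreated and at 13.1, 29.1 and 27.6 TPM after 6, 12 and 24 h. In both lines the lowest value was at 6 h; NB4 was back at its untreated level by 24 h, and the treated Kasumi-1 libraries all stayed below theirs. The level at 6 h was 2.10-fold lower than untreated in NB4 and 3.93-fold lower in Kasumi-1, where 2.99% of all genes tested were at least 2-fold lower at that time. Averaged over both lines and the 3 times, the difference from untreated was -0.81 on the log2(TPM + 1) scale (SE 0.22), with an unadjusted p of 0.008 and an adjusted p of 0.129 by limma; without the untreated Kasumi-1 library it was -0.43. At 6 h alone it was -1.44 (SE 0.27, unadjusted p 0.00113, limma adjusted p 0.245), and no gene of the 14650 passed at a single time (0.0%). In these bulk samples, fewer cells that express a gene and less of its RNA per cell cannot be told apart.

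RefSeq's promoter table (GRCh38.p14) had an entry for 6 of the 8 genes, and the stretches shown are those of the ligand and of both inhibitors, the members with an entry whose shared response had an unadjusted p under 0.05. Each match is a match of letters and says nothing of binding. Searches for 8 motifs covered, on both strands, the 250 bases before the first start that the table lists for a gene; it lists 1 start for TNFSF10 and FADD, 3 each for FAS, CASP8 and XIAP and 4 for CFLAR, and the other starts were not searched. The motifs were the interferon-stimulated response element (2 copies of GAAA separated by 2 bases, in 3.02% of 35116 windows of that length), the GC box GGGCGG (42.6%), the NF-kB consensus (9.96%), the FOXO element GTAAACA (2.98%), the AP-1 element TGACTCA (4.20%), the cAMP response element TGACGTCA (1.65%), the GAS element (TTC and GAA separated by 3 bases, 6.57%) and the C/EBP-ATF element TGATGNAA (3.14%). Of the windows not shown, FAS held a GC box, FADD 2 GC boxes and CASP8 a GC box and a GAS element. The TNFSF10 window held a match to the first of these motifs only, and the capitals mark it. It lies on the reverse strand in the part of the window at chr3:172523508-172523680, minus strand.
TNFSF10: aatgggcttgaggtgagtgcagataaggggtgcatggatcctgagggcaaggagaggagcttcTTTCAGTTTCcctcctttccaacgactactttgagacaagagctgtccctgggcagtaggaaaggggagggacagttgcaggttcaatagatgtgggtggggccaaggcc
IRF1, a factor that binds such elements, was measured at 11.6, 14.4, 16.8 and 21.3 TPM in NB4 and at 6.26, 9.89, 9.91 and 9.07 TPM in Kasumi-1 (untreated, 6, 12 and 24 h). It was above untreated in every treated library, as 12.9% of all genes tested were, and its part in the TNFSF10 values was not tested.

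The other ligands of the pathway were scarce. FASLG, the ligand of FAS, was listed at 0 in 7 libraries and at 0.0396 TPM in the eighth. TNF and LTA were listed at 0 in all 8 libraries. Both lie on chromosome 6 between 28 and 34 Mb, where 93 of 194 protein-coding genes (47.9%) were listed at 0 in every library, against 16.5% of all protein-coding genes, so a 0 there may be a failed estimate.

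Of the 3 death receptors among the 8 genes, DR5 had the most transcript in NB4. TNFRSF10B (chromosome 8, minus strand, hg19 22877646 to 22926692) was measured at 39.5 TPM in untreated NB4 and at 65.3, 85.9 and 109 TPM after 6, 12 and 24 h. In Kasumi-1 the levels were 14.6 TPM untreated and 34.04, 28.5 and 19.4 TPM after 6, 12 and 24 h. NB4 thus had its highest value at the last time and Kasumi-1 at the first, and the highest Kasumi-1 library lay below the lowest NB4 library. Relative to untreated, the levels were 1.65-, 2.17- and 2.77-fold in NB4 and 2.33-, 1.95- and 1.32-fold in Kasumi-1. The shared difference was 0.95 on the log2(TPM + 1) scale (SE 0.27, unadjusted p 0.0102), and its limma adjusted p was 0.138. The opposite-strand neighbour RHOBTB2 overlaps TNFRSF10B by 67 bases and stood between 5.18 and 16.4 TPM; strandedness of the libraries is not given in the sources used here, so reads in the overlap cannot be assigned.

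DR4 did not follow DR5 in Kasumi-1. TNFRSF10A (chromosome 8, minus strand, hg19 23047965 to 23082639) was measured at 16.4, 23.2, 26.9 and 28.2 TPM in NB4 and at 21.9, 35.2, 17.3 and 18.8 TPM in Kasumi-1 (untreated, 6, 12 and 24 h). All treated NB4 libraries were above untreated, while in Kasumi-1 only the 6 h library was. The shared log2 difference was 0.34 (SE 0.27, limma adjusted p 0.512), and it ran from 0.0397 without the untreated NB4 library to 0.64 without the untreated Kasumi-1 library. The ratio of DR5 to DR4 TPM was 2.41 in untreated NB4 and 2.81, 3.20 and 3.87 with treatment, and 0.667 in untreated Kasumi-1 and 0.966, 1.65 and 1.03 with treatment. Every treated library had a higher ratio than the untreated library of its line.

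**Figure D2:**
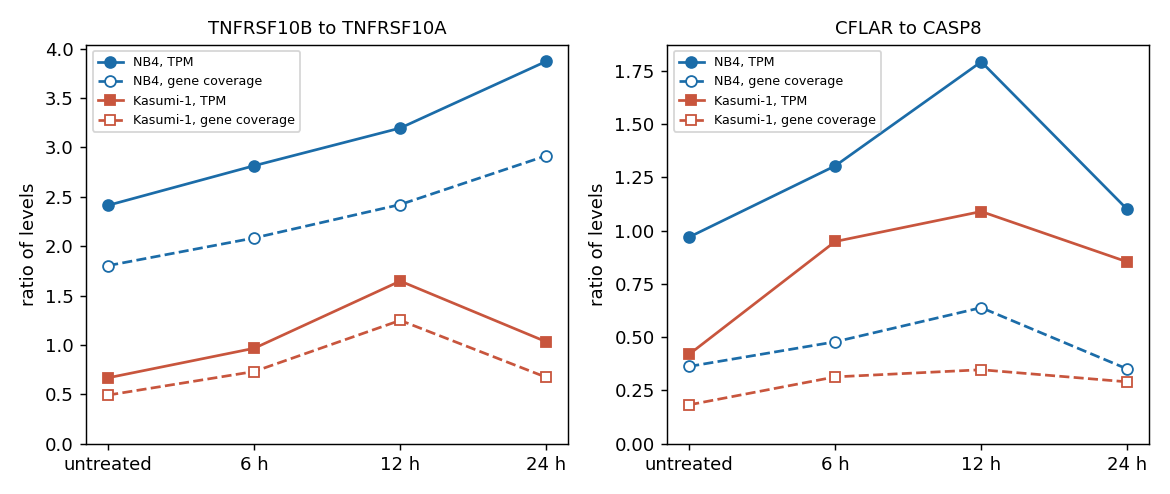
Ratio of TNFRSF10B to TNFRSF10A and of CFLAR to CASP8 in each library (vertical axis, linear from 0) by condition, from TPM (filled points) and from gene coverage (open points), one point per library without replicates. By TPM the first ratio lies between 2.41 and 3.87 in NB4 and between 0.667 and 1.65 in Kasumi-1, and the second has its highest value at 12 h in both lines.

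FAS, the receptor of FAS ligand, lay on opposite sides of its untreated level in the lines. FAS (chromosome 10, plus strand, hg19 90750414 to 90775542) was measured in NB4 at 15.0 TPM untreated and at 11.5, 10.8 and 6.14 TPM after 6, 12 and 24 h. In Kasumi-1 it was near the limit of what these libraries resolve, at 0.686 TPM untreated and at 1.12, 1.75 and 1.29 TPM after 6, 12 and 24 h, with a mean read coverage of at most 0.733 over the gene. All treated NB4 libraries lay below untreated, as for 32.2% of all genes (30.6% lay above), and all treated Kasumi-1 libraries above it, as for 28.2% (36.0% lay below). The lines did not overlap. The mean log2 difference within NB4 was -0.65 (SE 0.36, limma adjusted p 0.448) and within Kasumi-1 0.49 (SE 0.36, limma adjusted p 0.489), the latter from 0.15 with gene coverage to 0.90 with a pseudocount of 0.1. The difference between these responses was 1.14 (SE 0.51, unadjusted p 0.0553), which did not pass the test (limma adjusted p 0.484) and was 0.74 with gene coverage and 1.60 with a pseudocount of 0.1. ACTA2, which overlaps FAS by 734 bases on the other strand, ran from 10.978 TPM in untreated NB4 to 5.36 TPM at 24 h and stayed at or below 0.733 TPM in Kasumi-1; reads in the overlap cannot be assigned without strand, and the part of this in the FAS values was not tested.

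The adaptor and the initiator caspase stayed nearest to their untreated levels. FADD (chromosome 11, plus strand, hg19 70049269 to 70053496) was measured at 64.5, 71.6, 75.9 and 83.3 TPM in NB4 and at 42.2, 46.4, 47.7 and 34.2 TPM in Kasumi-1 (untreated, 6, 12 and 24 h). The treated libraries were above untreated except Kasumi-1 at 24 h, and every NB4 library was above every Kasumi-1 library. CASP8 (chromosome 2, plus strand, hg19 202098166 to 202152434) was measured at 40.1, 40.9, 34.6 and 53.3 TPM in NB4 and at 56.2, 38.6, 40.8 and 47.2 TPM in Kasumi-1. Its lines overlapped, and by TPM the untreated library was the highest of Kasumi-1. By gene coverage it was not (13.1 untreated and 12.7, 13.5 and 13.7 after 6, 12 and 24 h). The shared log2 differences were 0.13 for FADD (SE 0.17, limma adjusted p 0.707; 0.0037 without the untreated NB4 library and 0.25 without the untreated Kasumi-1 library) and -0.17 for CASP8 (SE 0.17, limma adjusted p 0.597).

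Of the 8 genes, CFLAR had the smallest p for the shared response over the 3 times. CFLAR (chromosome 2, plus strand, hg19 201980827 to 202041410) was measured at 38.9 TPM in untreated NB4 and at 53.4, 62.0 and 58.5 TPM after 6, 12 and 24 h, and at 23.6 TPM in untreated Kasumi-1 and 36.6, 44.5 and 40.2 TPM after 6, 12 and 24 h. The course had the same shape in both lines, with the highest level at 12 h and all treated libraries above untreated. The shared log2 difference was 0.66 (SE 0.13, unadjusted p 0.00137, limma adjusted p 0.0869). The ratio of CFLAR to CASP8 TPM was 0.969 untreated and 1.30, 1.79 and 1.099 in NB4 and 0.420 untreated and 0.949, 1.09 and 0.853 treated in Kasumi-1. These gene totals do not separate the long and short forms of c-FLIP, and CASP8 or CFLAR levels computed from read coverage gave lower ratios (0.362 in untreated NB4 and 0.182 in untreated Kasumi-1) with treated values above untreated except at 24 h in NB4 (0.3503).

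The CFLAR window held 2 overlapping matches, a GC box followed by the NF-kB consensus. They are shown in capitals in the stretch chr2:201118610-201118633, plus strand, which is kept short because annotated transcripts begin upstream of it. The searched XIAP window at chrX:123859458-123859707, plus strand, held a GC box (capitals) and none of the other 7 motifs.
CFLAR: gcgggGGGCGGGGAATTCCgcaga
XIAP: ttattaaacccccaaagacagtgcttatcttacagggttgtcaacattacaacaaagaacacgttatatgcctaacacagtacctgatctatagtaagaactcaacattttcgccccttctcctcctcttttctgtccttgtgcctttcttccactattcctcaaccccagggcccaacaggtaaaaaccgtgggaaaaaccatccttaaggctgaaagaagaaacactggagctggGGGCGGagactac
NFKB1, a subunit of NF-kB whose own gene is a known NF-kB target, was measured at 56.5, 148, 139 and 100.05 TPM in NB4 and at 81.4, 81.5, 82.3 and 66.5 TPM in Kasumi-1. RELA, the other NF-kB subunit on the lists, was measured at 46.6, 52.8, 85.3 and 76.9 TPM in NB4 and at 62.6, 88.8, 77.6 and 69.1 TPM in Kasumi-1. RELA was above untreated in all 6 treated libraries, as 12.9% of all genes tested were. NFKB1 was above untreated in NB4. In Kasumi-1 it was almost at its untreated level at 6 and 12 h (1.002- and 1.011-fold) and below it at 24 h. The part of either subunit in the CFLAR values was not tested.

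XIAP, the caspase inhibitor, was measured at 8.81, 14.4, 14.3 and 9.67 TPM in NB4 and at 3.84, 6.82, 8.96 and 8.98 TPM in Kasumi-1 (X chromosome, plus strand, hg19 122993574 to 123047829). All treated libraries were above untreated, but NB4 was near its untreated level at 24 h, while Kasumi-1 was 2.34-fold above its own. The shared log2 difference was 0.70 (SE 0.23, unadjusted p 0.0191, limma adjusted p 0.167), and within Kasumi-1 it was 0.93 (SE 0.29, limma adjusted p 0.146). The NB4 values depend on the measure: the mean log2 difference in NB4 was 0.47 by TPM and 0.11 by gene coverage, by which the 24 h library was not above untreated. The corresponding Kasumi-1 levels by coverage were 2.17 untreated and 4.45, 3.94 and 5.85 with treatment.

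Across the 8 genes, none passed the test for the shared response, where 4 of 14650 genes (0.0273%) did. At an unadjusted limma p under 0.05, 3 of the 8 were higher (TNFRSF10B, CFLAR, XIAP) and 1 was lower (TNFSF10), against 9.3% of all genes higher and 11.1% lower. The median log2 difference of the 8 was 0.23, beside -0.03 over all genes tested. With the 3 treated times of a line taken as repeats, none of the 8 passed within NB4 (0.799% of all genes did) or within Kasumi-1 (0.314%, 0.205% higher and 0.109% lower). The unadjusted p was under 0.05 in NB4 for TNFRSF10B and CFLAR, both higher (8.3% of all genes were higher and 6.86% lower), and in Kasumi-1 for CFLAR, XIAP and TNFRSF10B, higher, and TNFSF10, lower (8.18% higher and 12.0% lower over all genes). These p-values measure the spread between times or between lines, not between cultures. None of the 8 was at least 2-fold away from untreated at all 3 times in a line, as 2.03% of genes were upward and 0.703% downward in NB4 (1.88% and 0.655% in Kasumi-1). At single times a distance of 2-fold on the log2(TPM + 1) scale was reached by TNFRSF10B upward at 12 and 24 h in NB4 and at 6 h in Kasumi-1, and by XIAP upward at 12 and 24 h in Kasumi-1. It was reached downward by FAS at 24 h in NB4 and by TNFSF10 at 6 h in Kasumi-1. The shares of all genes at least 2-fold higher and lower were 3.06% and 2.27% at 6 h, 5.6% and 2.37% at 12 h and 6.51% and 2.88% at 24 h in NB4, and 6.44% and 2.99% at 6 h, 4.85% and 3.52% at 12 h and 5.11% and 3.88% at 24 h in Kasumi-1. The responses of the lines differed for none of the 8 by the limma test of the difference, at adjusted p or at an unadjusted p under 0.05, and for 19 genes in all (0.13%).

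**Figure D3:**
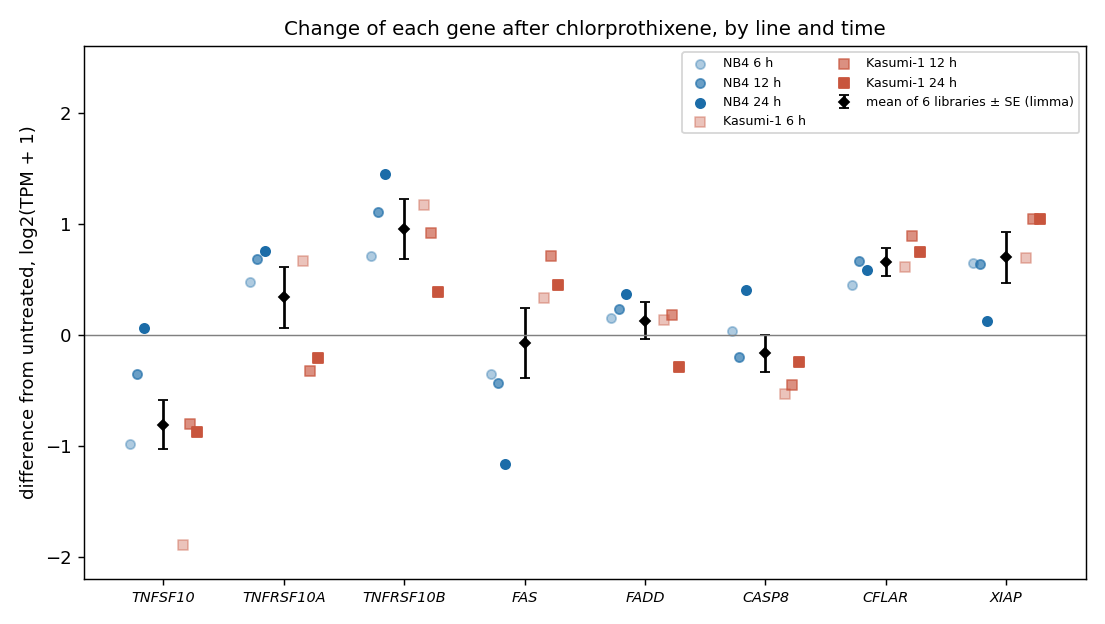
Difference between a treated library and its untreated counterpart in log2(TPM + 1) for each gene at 6, 12 and 24 h; each coloured point is 1 library, and the black diamond is the mean over the 6 treated libraries with its standard error from limma. TNFRSF10B, CFLAR and XIAP lie above 0 in all 6 treated libraries, and FAS lies below 0 in NB4 and above 0 in Kasumi-1.

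Between the lines, 6 of the 8 genes differed over the 4 conditions (limma adjusted p under 0.05), where 55.4% of all genes did. By TPM, FAS was the most different, with a log2 difference of -2.39 (Kasumi-1 minus NB4, SE 0.27, adjusted p 0.000402). By gene coverage it was -1.38 (adjusted p 0.00341). The FAS level in untreated NB4 was 21.8 times that in Kasumi-1 and 4.75 times at 24 h. Both ratios rest on Kasumi-1 levels near the limit of what these libraries resolve (0.686 TPM untreated and 1.29 TPM at 24 h). TNFRSF10B followed at -1.57 (SE 0.24, adjusted p 0.00136), 2.70 times higher in NB4 untreated and 5.64 times at 24 h. FADD was lower in Kasumi-1 with a difference of -0.78 (SE 0.15, adjusted p 0.00374) and CFLAR with -0.56 (SE 0.11, adjusted p 0.00474). TNFSF10 was the one gene higher in Kasumi-1, at 1.03 (SE 0.19, adjusted p 0.00359), by 3.16 times untreated and 1.62 times at 24 h. XIAP was lower in Kasumi-1 at -0.68 (SE 0.20, adjusted p 0.0244), but 9 of 15 alternatives ended this call. Among them were leaving out any 1 of 6 libraries (untreated, 6 h or 12 h of either line, adjusted p 0.0706 to 0.094) and gene coverage (log2 -0.32, adjusted p 0.251). CASP8 (0.11, adjusted p 0.531) and TNFRSF10A (-0.05, adjusted p 0.879) did not pass. For TNFRSF10B, FAS and FADD all NB4 libraries were above all Kasumi-1 libraries, which held for 22.8% of all genes (24.5% were higher in every Kasumi-1 library, as none of the 8 was).

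**Figure D4:**
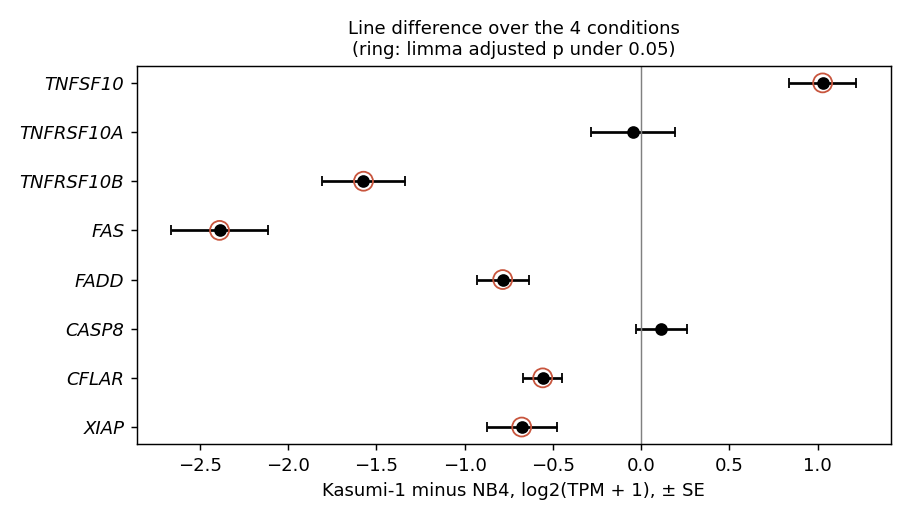
Kasumi-1 minus NB4 difference in log2(TPM + 1) of each gene over the 4 conditions, with the standard error from limma; a ring marks an adjusted p under 0.05. FAS (-2.39) and TNFRSF10B (-1.57) lie farthest below 0, TNFSF10 (1.03) above 0, and TNFRSF10A and CASP8 near 0.

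The rest of the pathway was read from 9 lists of 63 genes in all, of which 45 of the 55 genes other than the 8 were tested. For the shared response none of the 45 passed the limma test (by unadjusted p under 0.05, 4 were higher and 2 lower). In Kasumi-1 none did (by unadjusted p, 2 were higher and 6 lower). By the same unadjusted limma p, 9.3% of all genes tested were higher and 11.1% lower for the shared response. In Kasumi-1 these shares were 8.18% and 12.0%. In NB4, where 0.621% of all genes tested rose and 0.177% fell, 3 rose and none fell: TNFAIP3 (A20), which edits ubiquitin chains on signalling complexes, CYLD, a deubiquitinase that acts on RIPK1 complexes, and BIRC3 (cIAP2), a ubiquitin ligase of TNF receptor complexes. TNFAIP3 was measured at 8.58 TPM in untreated NB4 and at 184, 185 and 197 TPM after 6, 12 and 24 h, and at 86.5, 32.5, 49.3 and 69.3 TPM in Kasumi-1. Its log2 difference in NB4 was 4.31 (SE 0.35, limma adjusted p 0.00306). Its response differed between the lines by -5.14 (SE 0.49, limma adjusted p 0.0187), a call that ended without the NB4 12 h (adjusted p 0.0716), NB4 24 h (0.0646) or Kasumi-1 12 h (0.1) library.

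CYLD was measured at 13.2, 41.1, 44.8 and 40.3 TPM in NB4 and at 17.3, 18.6, 20.6 and 22.6 TPM in Kasumi-1, and its NB4 difference was 1.60 (SE 0.19, limma adjusted p 0.0156). That call ended without the NB4 12 h (0.0916) or the Kasumi-1 12 h library (0.0528). BIRC3 was measured at 0.412, 3.77, 6.27 and 4.18 TPM in NB4 and stayed at or below 0.708 TPM in Kasumi-1. Its NB4 difference was 1.999 (SE 0.33, limma adjusted p 0.0468), and 10 of 11 alternatives ended the call (adjusted p 0.0465 to 0.133 over all of them). In all 3 genes the treated NB4 libraries were above the Kasumi-1 library of the same time.

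Between the lines, 11 of the 45 were higher and 9 lower in Kasumi-1 (27.8% and 27.5% of all genes). Of the adaptors and kinases, RIPK1, the kinase at the branch of survival and death signalling, stood between 9.95 and 16.5 TPM in NB4 and between 33.8 and 39.0 TPM in Kasumi-1 (log2 difference 1.39, limma adjusted p 0.000265), and MLKL and PIDD were also higher, DAXX and PEA15 lower. Of the caspases, the inflammatory CASP4 stood between 34.8 and 48.9 TPM in NB4 and between 1.04 and 2.77 TPM in Kasumi-1 and CASP1 was lower as well, whereas CASP9 and CASP6 were higher. BIRC2, BIRC6, XAF1, FOXO1, FOXO3 and SP1 were higher in Kasumi-1, and BIRC3, CYCS, PARP1, TNFRSF10C and IRF1 lower. XIAP, of the same family as BIRC2, BIRC3 and BIRC6, had the direction of BIRC3, within the limits given for its call.

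Among the receptors outside the 8, the decoy TNFRSF10D, which binds TRAIL without a working death domain, was measured at 6.69, 9.47, 14.7 and 16.6 TPM in NB4 and at 11.6, 26.2, 27.3 and 13.9 TPM in Kasumi-1. It was above untreated in all 6 treated libraries, as DR5 and 12.9% of all genes tested were, with a shared log2 difference of 0.86 (SE 0.30, limma adjusted p 0.179). The other decoy tested, TNFRSF10C, was measured at 2.28, 1.81, 3.43 and 2.97 TPM in NB4 and at 1.71, 1.46, 0.925 and 1.07 TPM in Kasumi-1. Its shared log2 difference was -0.09 (limma adjusted p 0.882). The ratio of TNFRSF10D to DR5 lay between 0.145 and 0.171 in NB4 and between 0.718 and 0.960 in Kasumi-1 by TPM. By gene coverage it lay between 0.215 and 0.252 in NB4 and between 1.105 and 1.41 in Kasumi-1, so which of the receptors had the higher level in Kasumi-1 depends on the measure. TNFRSF1A, the TNF receptor that signals death through TRADD, lay between 95.2 and 140 TPM in all libraries. Of the mitochondrial antagonists of XIAP, DIABLO (SMAC) was measured at 112 TPM in untreated Kasumi-1 and at 48.0, 55.1 and 46.2 TPM after 6, 12 and 24 h, at least 2-fold lower at each time, and at 62.1, 92.4, 63.0 and 49.4 TPM in NB4. Its log2 difference in Kasumi-1 was -1.16 (limma adjusted p 0.11). XIAP was above the same single untreated Kasumi-1 library at each time. In NB4, by TPM, DIABLO and XIAP were both above untreated at 6 and 12 h, and at 24 h only XIAP was. A link between these genes was not tested.

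**Figure D5:**
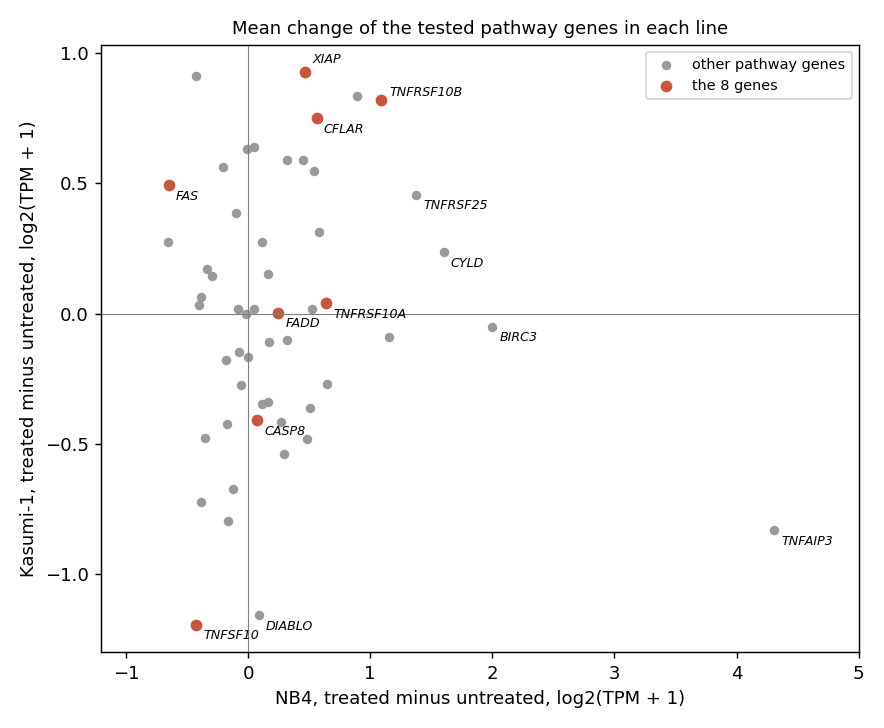
Mean log2(TPM + 1) difference of the 3 treated times from untreated in NB4 (horizontal) and Kasumi-1 (vertical) for the pathway genes tested, with the 8 genes marked; each axis rests on 1 untreated library. TNFAIP3 stands apart at 4.31 in NB4, and the 8 genes lie within -1.19 and 1.09 on either axis.

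Downstream, PARP1, a DNA repair enzyme and caspase substrate, stood at 291 TPM in untreated Kasumi-1 and at 163, 172 and 166 TPM with treatment (log2 difference -0.80, limma adjusted p 0.0701). In Kasumi-1 the treated libraries also had less of the lymphoid markers, whose 4 genes summed to 11.9 TPM untreated and to 1.52 to 2.86 TPM with treatment, mostly CD3D, with MS4A1 at 0, and less of the 3 progenitor and fusion markers (654 TPM untreated, 172 to 331 TPM treated). In NB4 the lymphoid markers summed to 10.2 TPM untreated and to 5.74 to 16.2 TPM treated, and the 5 myeloid markers to 5285 TPM untreated and to 1999 to 3551 TPM treated, most of it MPO (4889 TPM untreated, 3140, 2104 and 1528 TPM treated). Another myeloid marker, SPI1, was above untreated in NB4 (222 TPM untreated, 247, 327 and 313 TPM treated), CEBPA was so at 6 and 12 h (73.6 TPM untreated, 92.8, 89.3 and 68.9 TPM treated), and CD33 (61.5 TPM untreated, 47.8 to 60.2 TPM treated) and CSF3R (38.5 TPM untreated, 22.8 to 31.4 TPM treated) were below. In Kasumi-1 the myeloid markers summed to 10445 TPM untreated and to 9615 to 12107 TPM treated, most of it MPO (9908 TPM untreated, 9128 to 11406 TPM treated). The sum hides opposite directions of its members. In Kasumi-1, SPI1 was above untreated at each time (132 TPM untreated, 180 to 263 TPM treated). CD33 was below it at each time (48.5 TPM untreated, 18.3 to 26.8 TPM treated). MPO, CEBPA and CSF3R lay on both sides of their untreated levels. The part of these markers in the results was not tested, nor was that of the mitochondrial share on its own. One alternative computed TPM without the mitochondrial and the most abundant genes together. Under it, none of the genes chosen by name passed for the shared, within-line or response differences, as in the main analysis. The small TNFRSF10A difference between the lines changed sign, from -0.05 to 0.0433.

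For each gene, the 3 genes of most alike log2(TPM + 1) over the 8 libraries were taken from 9802 protein-coding genes averaging 5 TPM or more. They are given as a description only. The libraries share the line difference, and the highest of so many r values over 8 libraries is high through the choice itself. TNFRSF10B was closest to MEF2D (Pearson r 0.995), HPCAL1 (0.990) and MMP2 (0.989). FAS was closest to AVL9 (0.996), CEBPD (0.993) and MTRR (0.991). CFLAR was closest to ARHGAP30 (0.976), SULT1A3 (0.973, whose near-identical copy makes its level uncertain) and ARHGEF7 (0.972). TNFSF10 was closest to ZSCAN12 (0.961), KAT7 (0.954) and RRAGB (0.951), and XIAP to ICAM4 (0.970), C1orf43 (0.964) and ANO6 (0.948). FADD was closest to FAM96B (0.987), EFHD2 (0.986) and ZNF511 (0.985). The r of the closest gene was lower for TNFRSF10A (FHOD1, 0.953, then FAM3C, 0.938, and LRP8, 0.922) and for CASP8 (E2F2, 0.945, then ZNF736, 0.930, and IQCC, 0.886). Among the 8 genes themselves, the highest r was 0.933, between TNFRSF10B and FADD, followed by 0.925 between CFLAR and XIAP, and the lowest was -0.787, between TNFSF10 and XIAP.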

How the data were processed

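Total RNA of 8 libraries was sequenced, and each title gave the line and time used for grouping. Per the submitters' processing notes, the authors used HISAT2, StringTie and hg19; no version, option, annotation or strandedness is stated in the sources used here. The deposited tables hold TPM, the authors' abundance scaled for length and summing alike in each library, FPKM, the deposited abundance scaled for length and depth, and coverage, the deposited mean read coverage (a signal) of a gene. Rows of the 296 gene names with more than 1 row were summed. The members and gene lists were chosen with earlier results of these data known.

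Genes averaging 1 TPM or more were tested on log2(TPM + 1), which understates the change of low genes, with limma 3.58.1 in R 4.3.3 (eBayes with an intensity trend, two-sided, Benjamini-Hochberg adjusted p under 0.05 over all 14650 genes). The shared response and the line difference came from an additive model of line and time with 3 residual degrees of freedom. Within-line and response differences came from a model of line and treatment with the times as repeats and 4 residual degrees of freedom, in which the lone untreated library of a line is assumed to vary like the treated ones. The code for these fits was tested on simulated data with known changes, which says nothing of the power in these libraries. No library was identical to another.

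Depth is known only as the ratio of coverage to FPKM, whose commonest value was 7.08 to 9.83 per library. For genes with several transcripts this ratio was below the commonest one (5.13% to 5.97% of it for CFLAR, 11.8% to 16.9% for CASP8, 100% for FADD), so an alternative level was computed from coverage, chosen after seeing the data. The other alternatives were another pseudocount, no filter, a higher filter, FPKM, TPM without mitochondrial and the most abundant genes, limma without trend, times as repeats, no line term, and leaving out each library. A few pathway genes of the lists are not reported here and were left out of the list counts. Named pathway genes are those that passed a test over all genes or were at least 2-fold changed at all 3 times in a line with at least 5 TPM, and the best known genes of a list. Promoter motifs were read from RefSeq's table and gene types from GENCODE 29, with matplotlib 3.10.9 for plots and numpy 2.4.6 and pandas 2.3.3 under Python 3.11.15 for the tables.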

Additional observations from a re-analysis of the deposited data

Results flagged for a closer look

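In the test of the response difference (Kasumi-1 minus NB4, on the log2(TPM + 1) scale), TNFAIP3 passed at -5.14 (limma adjusted p 0.0187), higher at all 3 times in NB4 and lower at all 3 times in Kasumi-1. For FAS the treated libraries were below untreated at all 3 times in NB4 and above it in Kasumi-1, with a response difference of 1.14 that did not pass (limma adjusted p 0.484). The same opposite pattern, with differences that did not pass the limma test, was seen for the stress factor DDIT3 (1.34) and for FOXO1 (0.51), both lower in NB4 and higher in Kasumi-1. The reverse pattern, higher in NB4 and lower in Kasumi-1, was seen for BID (-0.97), which links CASP8 to mitochondria, for CYCS (-0.87), for TRAF2 (-0.84), for DAXX (-0.69) and for BIRC5 (-0.46). Opposite directions at all 3 times were found for 9 of the 53 pathway genes tested (17.0%) and for 1703 of all 14650 genes (11.6%). DDIT3, a factor that acts on the DR5 gene in stressed cells, was measured at 62.7, 48.1, 50.9 and 40.6 TPM in NB4 and at 26.9, 56.7, 60.5 and 39.7 TPM in Kasumi-1, below untreated in NB4 and above it in Kasumi-1. ATF4, a stress factor of the same list, was measured at 549, 810, 637 and 626 TPM in NB4 and at 580, 1072, 892 and 698 TPM in Kasumi-1 (shared log2 difference 0.46, SE 0.14, unadjusted p 0.0144, limma adjusted p 0.154). ATF4 and TNFRSF10B were above untreated in all 6 treated libraries, as 12.9% of all genes tested were. Both were highest at 6 h in Kasumi-1, but in NB4 ATF4 was highest at 6 h and TNFRSF10B at 24 h. The part of DDIT3 or ATF4 in the TNFRSF10B values was not tested.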

How the results depend on the processing

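No pairing of replicate cultures was possible because the labels give no replicate numbers and each condition is 1 library. The additive model of line and time took the 4 conditions as pairs for the line difference. The number of the 8 genes that passed was 0 for the shared, within-line and response differences under every alternative run, and for the line difference it was 1 higher and 4 to 5 lower in Kasumi-1. Over all genes the counts moved more. For the shared response, 4 genes passed, against 0 with a pseudocount of 0.1, 0 without a filter, 0 without a line term, 0 with gene coverage, 27 with a mean of at least 5 TPM, 17 without mitochondrial and abundant genes and 133 with times as repeats; leaving out 1 library gave 0 to 50. In NB4, 117 genes passed, against 500 without a filter and 19 to 111 with 1 library left out. In Kasumi-1, 46 passed, against 70 with a pseudocount of 0.1, 559 without a filter, 19 with gene coverage and 6 to 229 with 1 library left out. For the response difference, 19 passed, against 528 without a filter, 10 with gene coverage and 0 to 31 with 1 library left out. The cause was not tested. The direction turned for small differences: FAS in the shared response with a pseudocount of 0.1 (0.10), CASP8 with gene coverage in the shared response (0.13), between the lines (-0.0169) and in Kasumi-1 (0.018), FADD in Kasumi-1 with gene coverage (-0.0336), and TNFRSF10A between the lines without mitochondrial and abundant genes (0.0433). With 1 library left out, the shared difference ran from -0.65 to 0.49 for FAS and from -0.41 to 0.075 for CASP8, the line difference from -0.26 to 0.14 for TNFRSF10A and from -0.0078 to 0.21 for CASP8, the NB4 difference of CASP8 from -0.088 to 0.22, and the Kasumi-1 difference from -0.27 to 0.22 for TNFRSF10A and from -0.0811 to 0.15 for FADD. Of 642 values of single genes under an alternative, 598 kept direction and side of the threshold. Within-line and response differences could not be fitted without the untreated library of a line. FAS in Kasumi-1, at about 1 TPM, and BIRC3 are limited by depth.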
